A study of Homo sapiens with 4 samples.

Results

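The collagen chain genes were the genes whose symbol consists of COL, a number, A and a number, so that each one encodes a single alpha chain of a collagen. The rule used the symbol and no measured value. It found 44 of the 19314 genes listed, and 39 of the 44 had an FPKM value. FPKM is a count of sequenced fragments scaled to transcript length and to the mapped total of the library, so levels of different chains can be compared per length. COL4A1, COL6A5, COL22A1, COL23A1 and COL26A1 were listed without a value in every library. The other 39 genes each had a value above 0 in at least 1 of the 4 libraries and were tested.

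The study asked how knockdown of PTPRN alters the transcriptome of U87 cells, an established human glioma line. PTPRN is named as a receptor-type protein tyrosine phosphatase, but the paper describes its phosphatase domain as inactive. The shPTPRN-2 group held 2 libraries from cells given 1 short hairpin RNA against PTPRN, labelled PTPRN knockdown. The shScr group held 2 libraries from cells given a scrambled hairpin, labelled SCR. Total RNA from all 4 was sequenced with single-end reads of 50 bases, and the growth protocol in the labels names hCMEC/D3, a brain endothelial line, although cell line and source are given as U87. Nothing states whether the replicates were separate cultures, so p-values measure only the spread between these libraries, which may be technical. No second hairpin was sequenced.

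PTPRN itself (Gene ID 5798) was at 12.09 and 11.68 FPKM with shPTPRN-2 and at 84.84 and 85.02 FPKM with shScr. The groups did not overlap, and the log2 fold change was -2.74 (SE 0.0326, limma adjusted p = 1.48e-04). Fold changes here are differences of shPTPRN-2 minus shScr on the log2(FPKM + 1) scale, which understates the change of low genes. Each adjusted p comes from limma over all 16595 genes tested, with Benjamini-Hochberg adjustment. Between 11080 and 11252 genes reached 1 FPKM in each library.

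Collagens are the main structural proteins of the extracellular matrix. Each molecule is a triple helix of alpha chains in which each repeated triplet of residues starts with glycine, and some types need chains of different genes in 1 molecule. The chains are hydroxylated and glycosylated in the endoplasmic reticulum, exported, trimmed outside the cell and cross-linked. Fibril-forming collagens build banded fibrils, network collagens build basement membranes, and others decorate fibrils, form beaded filaments or anchor tissue layers. In normal brain fibrillar collagen is scarce outside vessels and meninges, while glioma cells in culture often express it.

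The repeat can be read directly in the exons. In the longest complete coding sequence of each gene in GENCODE 29, a unit of 9 bases encodes glycine and the 2 residues after it. Exons of exactly 54 bases, which hold a whole number of such units, are shown for a pair of type V chains that moved in opposite directions and for a pair of type VI chains that both fell. Capitals mark the glycine codon, GGN, that starts each unit, and a glycine codon at another place in a unit is left in lower case. On GRCh38 the exons lie at chr9:134753850-134753903 (COL5A1 exon 15, plus strand), chr19:9996066-9996119 (COL5A3 exon 15, minus strand), chr21:46115872-46115925 (COL6A2 exon 6, plus strand) and chr2:237361121-237361174 (COL6A3 exon 16, minus strand).
COL5A1: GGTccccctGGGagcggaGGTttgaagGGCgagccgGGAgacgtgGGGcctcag
COL5A3: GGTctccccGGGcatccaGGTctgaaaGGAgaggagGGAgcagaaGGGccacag
COL6A2: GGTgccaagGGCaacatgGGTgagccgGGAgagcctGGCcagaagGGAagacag
COL6A3: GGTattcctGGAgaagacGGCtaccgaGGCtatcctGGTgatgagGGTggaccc

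The 11 fibril-forming genes had 21 to 33 coding exons of this length and an unbroken run of 216 to 343 glycine-led units. The other 33 genes had runs of at most 113 units. The 5 beaded filament genes had 2 or 3 such exons each, and the 10 fibril-associated genes had 4 to 28. The GC content of the coding sequences ranged from 44.1 to 71.6%.

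Across the 39 genes tested, 18 fell, 5 rose and 16 did not pass an adjusted p of 0.05. The same threshold was passed downward by 27.1% and upward by 30.8% of all genes tested. At the thresholds of the study, a fold change of 2 or more and an adjusted p of 0.001 or less, with the fold taken on the log2(FPKM + 1) scale, 12 collagen genes were lower and 1 was higher, against 4.06% and 2.63% of all genes. COL3A1, with a ratio of mean FPKM of 3.27, was under the fold threshold on this scale and is not among them. These counts were 0 and 0 with a pseudocount of 0.1, with the replicate block and whenever 1 of the 4 libraries was left out, fits in which 0 of all genes passed in limma. Both shPTPRN-2 libraries lay below both shScr libraries for 25 collagen genes and above them for 8, where 35.8% and 39.7% of all genes did so. The groups overlapped for the remaining 6. The median log2 fold change was -0.25 over the 39 genes and 0.01 over all genes tested.

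Most of the calls lay among the expressed chains. With a mean of at least 1 FPKM in either group, 20 collagen genes remained, of which 16 fell, 2 rose and 2 did not pass. Their median log2 fold change was -1.38, beside 0.06 for the 11553 genes at that level, of which 3918 were lower and 4719 higher. This level was reached by some genes only through the group in which they were high, so the medians describe the genes and are no support for a direction. A bulk library cannot tell fewer cells of a type from less RNA per cell.

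**Figure D1:**
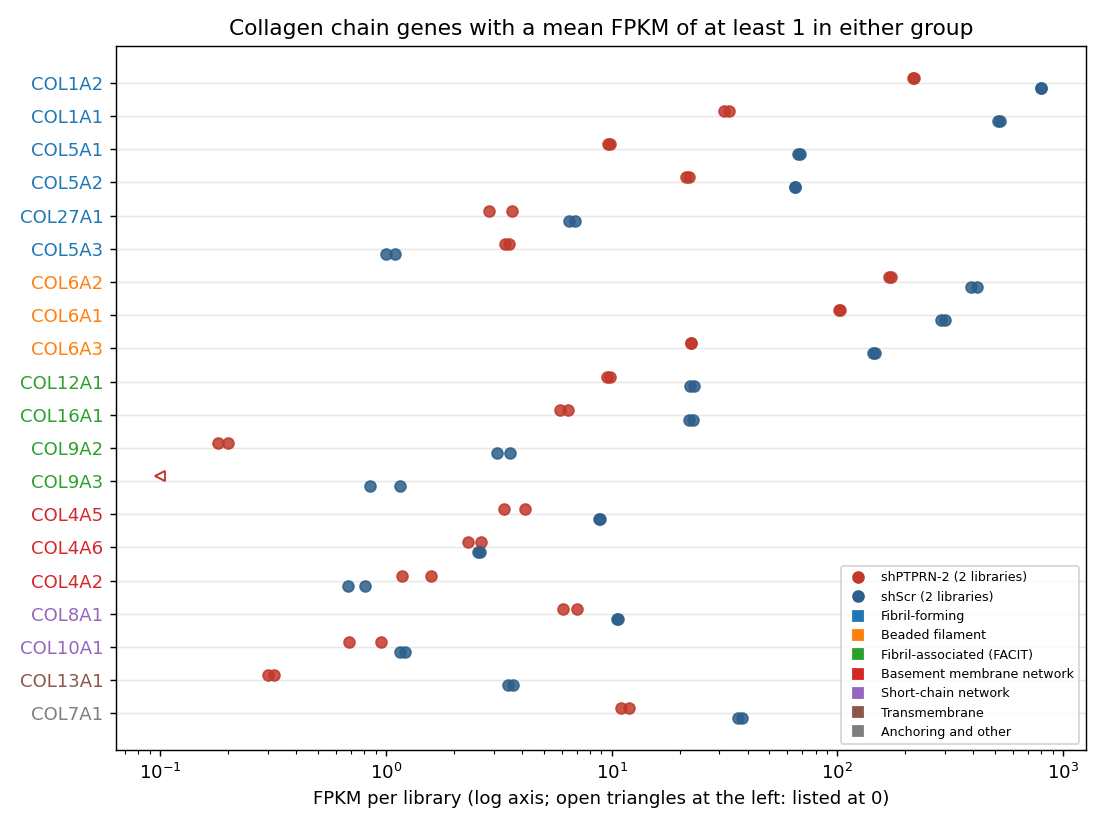
FPKM (log axis) of the 20 collagen chain genes with a mean of at least 1 FPKM in either group, 1 point per library, gene names coloured by role, with an open triangle where a gene was listed at 0. The 2 shPTPRN-2 points lie to the left of the 2 shScr points for COL1A1, COL5A1, COL6A3 and most others, to the right for COL5A3 and COL4A2, and among them for COL4A6.

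**Figure D2:**
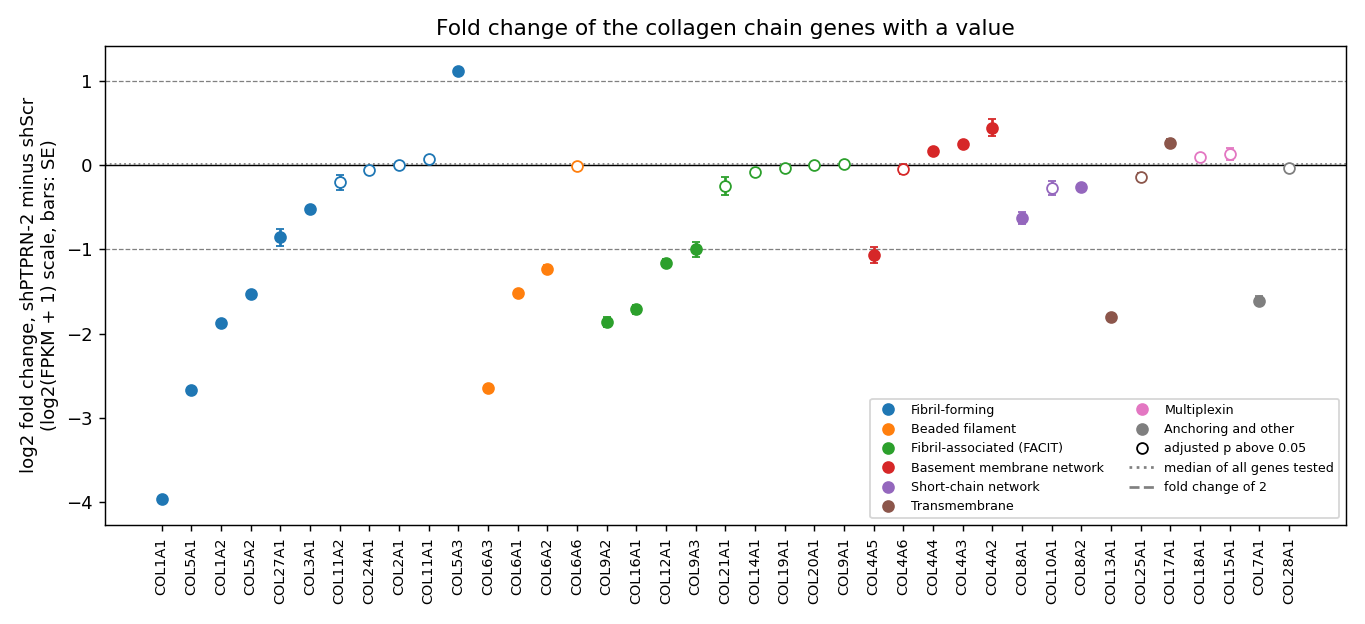
log2 fold change (shPTPRN-2 minus shScr, log2(FPKM + 1) scale, bars are SE) of the 39 collagen chain genes with a value, ordered within each role; filled points passed an adjusted p of 0.05. The values run from -3.97 for COL1A1 to 1.12 for COL5A3, and most open points lie near 0.

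Among the fibril-forming genes 6 of 11 fell and 1 rose, with a median of -0.53. Counts by role, here and below, are to be read against the 27.1% of all genes tested that fell and the 30.8% that rose. At the stricter thresholds these shares were 4.06% and 2.63%. COL1A1 (Gene ID 1277, chromosome 17 from 50184096 to 50201639, minus strand), the alpha 1 chain of type I collagen, was at 31.32 and 33.15 FPKM with shPTPRN-2 and at 525.01 and 515.09 FPKM with shScr. The groups were far apart, with means of 32.2 ± 1.29 and 520.1 ± 7.01 FPKM (SD, n = 2), a ratio of 16.1. On the log2(FPKM + 1) scale this was the largest fold change of any collagen gene, -3.97 (SE 0.0416, limma adjusted p = 1.33e-04). COL9A2, a low gene, had a larger ratio of means, 17.6, which rests on an estimated 9 and 10 reads with shPTPRN-2. COL1A2 (Gene ID 1278, chromosome 7 from 94394561 to 94431232, plus strand), its partner chain, was at 216.86 and 218.48 FPKM with shPTPRN-2 and at 801.12 and 794.36 FPKM with shScr. It was the most abundant collagen transcript in each of the 4 libraries and fell by 1.87 on the log2 scale (SE 0.0285, limma adjusted p = 1.58e-04).

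Type V collagen is a minor component of type I fibrils and takes part in starting them. COL5A1 (Gene ID 1289, chromosome 9 from 134641805 to 134844843, plus strand) was at 9.61 and 9.80 FPKM with shPTPRN-2 and at 68.08 and 66.77 FPKM with shScr. The libraries of each group lay close together, and the log2 fold change was -2.68 (SE 0.0311, limma adjusted p = 1.48e-04). COL5A2 (Gene ID 1290, chromosome 2 from 189031915 to 189179879, minus strand) was at 21.33 and 21.97 FPKM against 64.62 and 64.60 FPKM with shScr. It fell less, by 1.53 (SE 0.0316, limma adjusted p = 2.39e-04).

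COL5A3 (Gene ID 50509, chromosome 19 from 9959561 to 10010471, minus strand), the third type V chain, moved the other way. Its level was 3.36 and 3.52 FPKM with shPTPRN-2 and 1.10 and 1.00 FPKM with shScr. It was the only differential collagen gene that rose, with a log2 fold change of 1.12 (SE 0.0425, limma adjusted p = 4.35e-04). It was no longer differential with a pseudocount of 0.1, with the replicate block or without any 1 library, but its adjusted p was at most 0.0236 in each of the 12 alternatives. The 3.28-fold higher mean left it below both other type V chains in every library. An antisense gene, AC008742.1, overlaps its exons in the annotation.

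COL27A1 (Gene ID 85301), a fibril-forming chain known from cartilage, was at 2.87 and 3.63 FPKM with shPTPRN-2 and at 6.45 and 6.88 FPKM with shScr. The groups did not overlap, and it fell by 0.86 (SE 0.103, limma adjusted p = 0.00465). The limma adjusted p was 0.0894 without shScr replicate 1 and 0.0986 without shScr replicate 2. The remaining fibril-forming genes were at or below 0.81 FPKM in every library. COL3A1, the type III chain that mixes with type I in many tissues, was one of them, at 0.23 and 0.25 FPKM against 0.76 and 0.81 FPKM, and fell by 0.53 (limma adjusted p = 9.73e-04). COL2A1, COL11A1, COL11A2 and COL24A1, among them the main cartilage chains, did not exceed 0.32 FPKM and did not pass the test.

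The ratio of partner chains was formed within each library, which removes any factor that scales a whole library. COL1A1 over COL1A2 was 0.144 and 0.152 with shPTPRN-2 and 0.655 and 0.648 with shScr. On the log2 scale this is -2.76 ± 0.0503 against -0.62 ± 0.0108 (SD, n = 2), a difference of -2.14 that exceeds the spread between libraries many times over. Type I collagen is mostly assembled from chains of both genes. COL5A1 over COL5A2 was 0.451 and 0.446 with shPTPRN-2 and 1.054 and 1.034 with shScr, a log2 difference of -1.22. The type V alpha 1 transcript was thus near parity with alpha 2 in the shScr libraries and less abundant than alpha 2 in the shPTPRN-2 libraries. With 2 libraries against 2, an exact two-sided permutation test of a single ratio cannot go below p = 0.333, so none is given for these ratios.

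The beaded filament collagen, type VI, forms microfibrils between cells and fibrils. Of its 4 genes with a value, 3 fell, all 3 past the stricter thresholds, and COL6A6 was listed at 0 in 3 libraries and at 0.01 FPKM in the other. COL6A3 (Gene ID 1293, chromosome 2 from 237324012 to 237414207, minus strand) was at 22.45 FPKM in both shPTPRN-2 libraries and at 144.08 and 147.41 FPKM with shScr. It had the largest fold change of the type, -2.65 (SE 0.0304, limma adjusted p = 1.48e-04). COL6A1 (Gene ID 1291, chromosome 21 from 45981749 to 46005049, plus strand) was at 102.07 and 102.75 FPKM against 301.07 and 288.54 FPKM, and COL6A2 (Gene ID 1292, the next collagen gene downstream on the same strand) at 172.79 and 169.41 FPKM against 416.62 and 391.68 FPKM. They fell by 1.52 (SE 0.0360, limma adjusted p = 2.57e-04) and by 1.23 (SE 0.0441, limma adjusted p = 4.07e-04).

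The type VI chains therefore changed unequally. COL6A1 over COL6A2 was 0.591 and 0.607 with shPTPRN-2 and 0.723 and 0.737 with shScr, a log2 difference of -0.29. COL6A1 over COL6A3 was 4.547 and 4.577 with shPTPRN-2 and 2.09 and 1.957 with shScr, a log2 difference of 1.17. A type VI molecule is built from 1 chain of each of these genes, and COL6A3 was the least abundant of these transcripts in all 4 libraries.

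**Figure D3:**
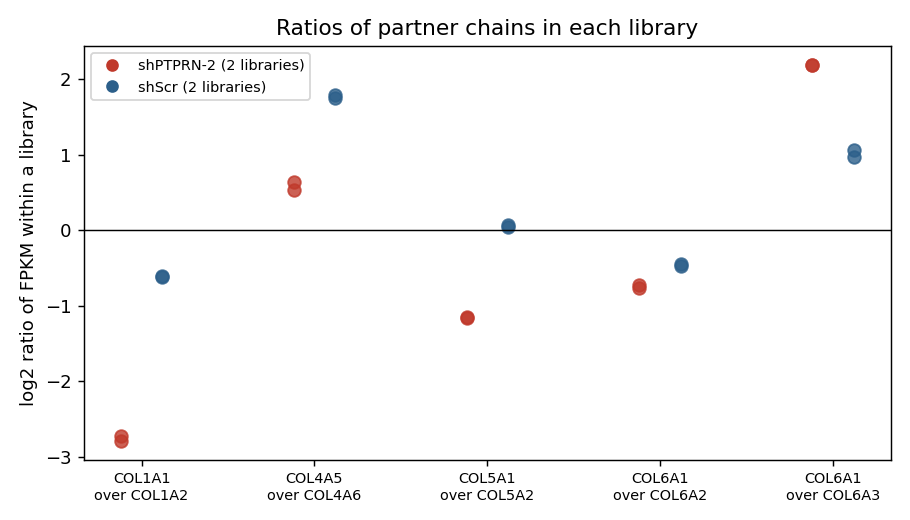
log2 ratio of FPKM of partner chains within each library, 1 point per library, for the 5 pairs in which both chains had a mean of at least 1 FPKM in both groups. The shPTPRN-2 points lie below the shScr points for 4 pairs and above them for COL6A1 over COL6A3, and the distance is largest for COL1A1 over COL1A2.

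The summed FPKM of all collagen genes was 626.9 and 632.1 with shPTPRN-2 and 2444.8 and 2394.7 with shScr, with means of 629.5 ± 3.67 and 2419.8 ± 35.43 (SD, n = 2), a ratio of 3.84. Collagen genes thus made up 0.141 and 0.144% of the total FPKM in the shPTPRN-2 libraries and 0.576 and 0.570% in the shScr libraries. The mixture shifted as well. Type I chains gave 39.6 and 39.8% of the collagen sum with shPTPRN-2 and 54.2 and 54.7% with shScr, while type VI chains gave 47.4 and 46.6% against 35.2 and 34.6%. COL1A1 alone went from 21.47 and 21.51% of the sum with shScr, where it ranked second, to 5.0 and 5.24% with shPTPRN-2, where it ranked 4.

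Of the 9 fibril-associated genes with a value, 4 fell, 3 of them past the stricter thresholds, and 0 rose in limma at an adjusted p of 0.05. COL12A1 (Gene ID 1303), which links fibrils to the surrounding matrix, was at 9.50 and 9.79 FPKM with shPTPRN-2 and at 22.30 and 23.19 FPKM with shScr, a log2 fold change of -1.16 (SE 0.0371, limma adjusted p = 3.58e-04). COL16A1 (Gene ID 1307, chromosome 1 from 31652247 to 31704167, minus strand) was at 6.42 and 5.93 FPKM against 22.92 and 22.12 FPKM, and fell by 1.71 (SE 0.0491, limma adjusted p = 3.31e-04). The antisense gene AC114488.2 overlaps its exons.

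Type IX collagen coats cartilage fibrils, and 2 of its chains were found at low levels in shScr cells. COL9A2 (Gene ID 1298) was at 0.18 and 0.20 FPKM with shPTPRN-2, an estimated 9 and 10 reads, and at 3.11 and 3.56 FPKM with shScr. The means differed 17.6-fold, and the log2 fold change was -1.86 (SE 0.0623, limma adjusted p = 3.75e-04). COL9A3 (Gene ID 1299) was listed at 0 in both shPTPRN-2 libraries and at 1.16 and 0.85 FPKM with shScr. The shScr values correspond to an estimated 56 and 38 reads, and its fall (limma adjusted p = 0.00202) was lost without shPTPRN-2 replicate 1 (limma adjusted p = 0.0605) or shPTPRN-2 replicate 2 (limma adjusted p = 0.0606). An exon of TCFL5 overlaps COL9A3 on the opposite strand. COL9A1, COL14A1, COL19A1, COL20A1 and COL21A1 were at or below 0.45 FPKM in every library and did not pass the test.

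COL7A1 (Gene ID 1294, chromosome 3 from 48564073 to 48595160, minus strand), the chain of the anchoring fibrils under epithelia, was at 10.95 and 11.92 FPKM with shPTPRN-2 and at 36.26 and 37.70 FPKM with shScr. It fell by 1.61 (SE 0.0537, limma adjusted p = 3.75e-04). Among the membrane-spanning collagens, COL13A1 (Gene ID 1305, chromosome 10 from 69801888 to 69959148, plus strand) was at 0.32 and 0.30 FPKM against 3.67 and 3.49 FPKM. The means differed 11.5-fold, and the log2 fold change was -1.81 (SE 0.0357, limma adjusted p = 2.23e-04). Its shPTPRN-2 values correspond to an estimated 18 and 17 reads. COL17A1, a hemidesmosome component, went up from 0.36 and 0.43 FPKM to 0.70 and 0.66 FPKM, by 0.27 (limma adjusted p = 0.00861, and 0.0515 to 0.0878 without shPTPRN-2 replicate 1, shPTPRN-2 replicate 2 or shScr replicate 1). COL25A1 stayed at or below 0.14 FPKM. COL28A1 did not exceed 0.04 FPKM.

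The short-chain collagens form hexagonal networks. COL8A1 (Gene ID 1295) was at 6.08 and 7.02 FPKM with shPTPRN-2 and at 10.66 and 10.60 FPKM with shScr, and fell by 0.63 (SE 0.0717, limma adjusted p = 0.00405). COL8A2, its partner, was at 0.10 and 0.05 FPKM against 0.29 and 0.28 FPKM (limma adjusted p = 0.00774). With only 1 shScr library kept, neither passed, at adjusted p values of 0.0875 and 0.0900 for COL8A1 and 0.0806 and 0.0858 for COL8A2. Removing trends on GC content and length left COL8A2 at a log2 fold change of 0.02. COL10A1 (Gene ID 1300), a marker of hypertrophic cartilage, was at 0.69 and 0.95 FPKM against 1.16 and 1.22 FPKM, with a log2 fold change of -0.27 that did not pass (SE 0.0820, limma adjusted p = 0.0566). Under 5 alternatives it did, at adjusted p values of 0.0133 to 0.0490, among them leaving out shPTPRN-2 replicate 2 (0.0348).

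Of the 5 basement membrane genes of type IV tested, 3 were higher and 1 was lower, with a median log2 fold change of 0.16, where 30.8% of all genes were higher and 27.1% lower. The calls of COL4A2 and COL4A4, a pair of the 3 that were higher, were each lost under several alternatives, given with their values. COL4A5 (Gene ID 1287, chromosome X from 108439844 to 108697545, plus strand) was at 3.33 and 4.13 FPKM with shPTPRN-2 and at 8.81 and 8.92 FPKM with shScr, and fell by 1.07 (SE 0.0941, limma adjusted p = 0.00211, and 0.0682 or 0.0684 without shScr replicate 1 or 2). COL4A6 (Gene ID 1288, chromosome X from 108155607 to 108439497, minus strand) was at 2.30 and 2.64 FPKM against 2.61 and 2.57 FPKM. Its groups overlapped, and the log2 fold change was -0.05 (SE 0.0592, limma adjusted p = 0.528). COL4A5 and COL4A6 lie head to head with 346 bases between them, and their ratio was 1.448 and 1.564 with shPTPRN-2 and 3.375 and 3.471 with shScr, a log2 difference of -1.19.

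COL4A2 (Gene ID 1284), a chain of the most widespread type IV network, was at 1.58 and 1.18 FPKM with shPTPRN-2 and at 0.68 and 0.81 FPKM with shScr, and rose by 0.44 (SE 0.101, limma adjusted p = 0.0269). This call was lost without any 1 of the 4 libraries (limma adjusted p from 0.0524 without shPTPRN-2 replicate 2 to 0.224 without shScr replicate 1) and with the replicate block (0.0642). Its head-to-head neighbour COL4A1, 109 bases away, is the gene of the usual partner chain and was listed without a value, so their ratio could not be formed. COL4A3 and COL4A4, another head-to-head pair with 5 bases between them, rose together at low levels. COL4A3 was at 0.22 and 0.21 FPKM against 0.01 and 0.03 FPKM (limma adjusted p = 0.00451), and COL4A4 at 0.22 and 0.23 FPKM against 0.06 and 0.13 FPKM (limma adjusted p = 0.0425). The call of COL4A4 was lost without shPTPRN-2 replicate 1, shPTPRN-2 replicate 2 or shScr replicate 1 (limma adjusted p from 0.0637 to 0.206), with the replicate block (0.0573) and with a pseudocount of 0.1 (0.0593). It was also lost with a pseudocount of 0.1 and the eBayes trend together (limma adjusted p = 0.052). The shScr values of COL4A3 rest on an estimated 2 and 4 reads. Antisense genes overlap the exons of COL4A2 (COL4A2-AS1 and COL4A2-AS2) and of COL4A3 (AC097662.1). COL15A1 and COL18A1, the collagens of vessel basement membranes that release endostatin-like fragments, did not pass the test, at 0.64 to 0.93 FPKM and 0.08 to 0.18 FPKM.

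Of the 19 genes tested that stayed below a mean of 1 FPKM in both groups, 3 rose, 2 fell and 14 did not pass. Over all 16595 genes tested, 5107 rose and 4496 fell. Of these, 4719 and 3918 were among the 11553 genes that reached that mean in either group. Calls were thus rarer below it among all genes too, and the counts are not read as a result about collagen genes. The 5 of the 19 that passed were COL4A3, COL4A4, COL17A1, COL3A1 and COL8A2, and they are named because of their values.

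Promoter windows of 250 bases before the start site were found in the RefSeq table (GRCh38.p14) for 32 of the 44 genes. They are shown for both type V genes that moved in opposite directions, for the head-to-head pair of type IV genes of which 1 fell, and for COL13A1 and COL16A1, which fell and have a window in the table. Each gene is shown with 1 window, the first listed, except that for COL4A6 the window nearest COL4A5 was taken. Capitals mark GGGCGG or its other strand CCGCCC, the core of a GC box, and CCAAT or its other strand ATTGG. The windows lie at chr9:134641553-134641802 (COL5A1, plus strand), chr19:10010505-10010754 (COL5A3, minus strand), chrX:108439588-108439837 (COL4A5, plus strand), chrX:108439459-108439708 (COL4A6, minus strand), chr10:69801656-69801905 (COL13A1, plus strand) and chr1:31704018-31704267 (COL16A1, minus strand).
COL5A1: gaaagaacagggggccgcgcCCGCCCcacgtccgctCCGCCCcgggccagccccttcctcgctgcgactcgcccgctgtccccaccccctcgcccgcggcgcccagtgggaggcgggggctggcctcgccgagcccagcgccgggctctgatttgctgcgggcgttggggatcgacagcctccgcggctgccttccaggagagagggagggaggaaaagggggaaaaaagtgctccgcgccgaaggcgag
COL5A3: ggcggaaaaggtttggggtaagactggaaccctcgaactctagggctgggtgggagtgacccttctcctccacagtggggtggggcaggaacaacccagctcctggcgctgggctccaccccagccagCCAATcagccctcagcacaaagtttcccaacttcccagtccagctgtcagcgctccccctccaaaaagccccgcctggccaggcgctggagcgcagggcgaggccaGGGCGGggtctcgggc
COL4A5: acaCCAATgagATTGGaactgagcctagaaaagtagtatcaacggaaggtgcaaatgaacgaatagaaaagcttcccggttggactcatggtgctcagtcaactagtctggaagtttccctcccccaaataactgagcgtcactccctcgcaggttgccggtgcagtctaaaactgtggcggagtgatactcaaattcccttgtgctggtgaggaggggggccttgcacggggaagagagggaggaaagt
COL4A6: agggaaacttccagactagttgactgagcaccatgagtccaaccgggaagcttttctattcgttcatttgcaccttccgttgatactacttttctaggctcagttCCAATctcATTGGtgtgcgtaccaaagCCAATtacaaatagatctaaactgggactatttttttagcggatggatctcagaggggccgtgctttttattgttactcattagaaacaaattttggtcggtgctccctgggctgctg
COL13A1: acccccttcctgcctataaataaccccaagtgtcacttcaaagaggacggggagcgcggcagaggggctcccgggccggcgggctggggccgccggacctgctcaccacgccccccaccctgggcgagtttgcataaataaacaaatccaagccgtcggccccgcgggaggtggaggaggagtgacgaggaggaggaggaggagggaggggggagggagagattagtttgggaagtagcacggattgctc
COL16A1: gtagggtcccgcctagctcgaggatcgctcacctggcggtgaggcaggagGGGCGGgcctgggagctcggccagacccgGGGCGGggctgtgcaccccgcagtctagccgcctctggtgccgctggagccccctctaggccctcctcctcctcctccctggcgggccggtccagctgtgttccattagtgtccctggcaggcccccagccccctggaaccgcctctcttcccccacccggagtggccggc

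In the windows shown, COL5A1 and COL16A1 had 2 GC boxes each and no CCAAT, while COL5A3 had 1 of each. COL4A5 and COL4A6 had 2 and 3 matches to CCAAT and no GC box. Their windows overlap, and the 2 matches of COL4A5 are the same bases as 2 of the 3 of COL4A6. The windows of COL4A6, COL13A1 and COL16A1 reach into the gene as listed with the FPKM values, so the 2 sources place these start sites differently. Of the 32 genes with a window, 21 had GGGCGG in at least 1 of their windows, and 11 had CCAAT. Of the 35116 single windows of the table, 42.6% held GGGCGG and 32.0% held CCAAT. A gene can have more than 1 window, which raises its odds of a match, so counts of genes and shares of single windows are not alike. Of the 11 genes that fell and had a window, 8 had GGGCGG and 1 had CCAAT. Of the 5 genes that rose and had a window, 3 had GGGCGG and 3 had CCAAT. The motif TATAAA (other strand TTTATA) was found for 7 of the 32 genes and in 10.7% of single windows. For CAGGTG (other strand CACCTG) it was 5 genes and 17.5%, and for TGANTCA 1 gene and 6.6%. These are matches of letters on either strand, they were not tested, and they are not evidence of binding.

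The genes that act on collagen chains were described from 5 lists with 49 genes in all, each of which was tested. Of these, 31 fell, 4 rose and 14 did not pass, with a median log2 fold change of -0.62, whereas 27.1% of all genes tested fell and 30.8% rose, with a median of 0.01. The counts of each list are to be read against these shares. The list of chain modification and folding had 11 of 16 genes lower, 1 higher and a median of -0.73. PLOD2, a lysyl hydroxylase of the telopeptides, went from 295.64 and 300.66 FPKM with shScr to 105.85 and 106.86 FPKM with shPTPRN-2, a log2 fold change of -1.48 (limma adjusted p = 2.27e-04). SERPINH1, the collagen chaperone HSP47, went from 91.11 and 88.17 FPKM to 32.31 and 33.46 FPKM, a log2 fold change of -1.42 (limma adjusted p = 2.98e-04). P4HB, the beta subunit of prolyl 4-hydroxylase and a general disulfide isomerase, went from 549.25 and 533.64 FPKM to 338.38 and 334.86 FPKM and fell by 0.68. PPIB, a prolyl isomerase of the endoplasmic reticulum, was at 365.05 and 341.46 FPKM against 388.79 and 384.23 FPKM, which did not pass (limma adjusted p = 0.0798), though it did under 4 alternatives, among them leaving out shPTPRN-2 replicate 1 (0.0488). The 1 gene of the list that rose, and which is named for that, was PLOD3, by 0.38 (limma adjusted p = 0.00749, and 0.102 or 0.0952 without shPTPRN-2 replicate 1 or 2).

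Among genes of export and propeptide cleavage 6 of 11 fell and 0 rose in limma at an adjusted p of 0.05, with a median of -0.25. PCOLCE, which enhances removal of the C-propeptide, went from 206.24 and 191.22 FPKM to 22.56 and 18.46 FPKM, a log2 fold change of -3.22 (SE 0.112, limma adjusted p = 3.93e-04). BMP1, the protease that removes it, went from 52.99 and 50.91 FPKM to 18.49 and 17.85 FPKM, a log2 fold change of -1.47 (limma adjusted p = 3.00e-04). The coat proteins SEC23A and SEC24D, which serve export of many cargoes, fell by 0.26 and 0.25 (limma adjusted p = 0.0226 and 0.0104). SEC23A lost this call without any 1 of the 4 libraries (adjusted p from 0.0934 without shScr replicate 1 to 0.146 without shPTPRN-2 replicate 1), and SEC24D without any but shScr replicate 1 (0.0542 to 0.0972).

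Of the 5 lysyl oxidases, which start cross-links, 4 fell. LOXL1 went from 281.82 and 266.85 FPKM to 26.82 and 26.71 FPKM, a log2 fold change of -3.31 (limma adjusted p = 1.48e-04). LOXL2 went from 385.38 and 376.04 FPKM to 79.71 and 79.59 FPKM, a log2 fold change of -2.24 (limma adjusted p = 1.49e-04). LOX was at 41.17 and 40.35 FPKM against 66.30 and 66.54 FPKM and fell by 0.69 (limma adjusted p = 5.21e-04).

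Among the collagen receptors 7 of 10 fell and 1 rose, with a median of -0.83. DDR1, a receptor tyrosine kinase that binds collagen, went from 56.86 and 55.49 FPKM to 9.28 and 9.63 FPKM, a log2 fold change of -2.45 (limma adjusted p = 1.53e-04). MRC2, an endocytic collagen receptor, went from 41.58 and 40.53 FPKM to 9.66 and 10.22 FPKM, a log2 fold change of -1.94 (limma adjusted p = 2.42e-04). ITGB1, the beta subunit shared by the collagen-binding integrins and many others, was at 218.20 and 221.06 FPKM against 348.18 and 354.05 FPKM and fell by 0.67 (limma adjusted p = 5.46e-04). ITGA2, which pairs with it to bind collagen, was the receptor that rose, from 7.23 and 7.78 FPKM to 22.29 and 23.35 FPKM, by 1.49 (limma adjusted p = 3.78e-04). It is named because it was the only one.

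Of the 7 collagen-degrading proteases 3 were lower and 2 higher, where 27.1% of all genes were lower and 30.8% higher. The median of 0.01 is the value of MMP13, which did not exceed 0.04 FPKM. The 4 with a mean of at least 1 FPKM in either group all passed and are given here. MMP1, the interstitial collagenase, was at 33.36 and 30.25 FPKM with shPTPRN-2 and at 0.79 and 0.69 FPKM with shScr, and had the largest rise of all 49 genes, 4.24 (SE 0.065, limma adjusted p = 1.58e-04). MMP2, a gelatinase, went the other way, from 1067.45 and 1067.53 FPKM with shScr to 319.81 and 313.82 FPKM, a log2 fold change of -1.75 (limma adjusted p = 1.72e-04). CTSK, the lysosomal collagenase of osteoclasts, fell by 1.21 and MMP14, a membrane-bound collagenase, by 0.88 (limma adjusted p = 3.40e-04 and 4.08e-04).

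Markers of cell types that make collagen were read beside these results. Their counts are to be read against the 27.1% of all genes tested that fell and the 30.8% that rose. Of 9 fibroblast and pericyte markers 8 were tested, 6 fell and 1 rose (PDGFRA, by 0.61, with an adjusted p of 0.0659 or 0.0578 without shPTPRN-2 replicate 1 or 2), and their summed level was 40.89 and 39.86 FPKM with shPTPRN-2 and 156.49 and 156.89 FPKM with shScr. LUM, a small proteoglycan of collagen fibrils, fell most, from 54.06 and 52.73 FPKM to 1.48 and 1.46 FPKM (log2 fold change -4.46, limma adjusted p = 8.00e-05), and DCN, its relative, went from 7.57 and 6.95 FPKM to 1.44 and 1.27 FPKM. Of 10 endothelial markers 9 were tested, 3 rose and 2 fell, which is near the shares over all genes, with a summed level of 3.98 to 4.66 FPKM. Those that rose were ERG, from 0.07 FPKM in both shScr libraries to 0.68 and 0.94 FPKM, KDR, from 0.36 and 0.32 FPKM to 0.87 and 0.85 FPKM, and TEK, from 0.45 and 0.60 FPKM to 0.97 and 1.08 FPKM. Those that fell were PECAM1, from 2.39 and 2.50 FPKM to 1.21 and 1.26 FPKM, and VWF, from 0.98 and 0.93 FPKM to 0.06 and 0.05 FPKM. The junction genes CDH5 and CLDN5 did not exceed 0.03 FPKM, and ESAM and TIE1 did not exceed 0.34 FPKM. Of 10 glial and glioma markers 9 were tested, 2 rose and 4 fell. VIM, which many cell types express, rose from 1998 and 1918 FPKM to 4766 and 4565 FPKM (log2 fold change 1.25, limma adjusted p = 3.76e-04), and OLIG2 from 0.54 and 0.50 FPKM to 1.15 and 0.91 FPKM. NES, SOX9 and CHI3L1 fell by 1.78, 1.58 and 1.55 on the log2 scale, and GFAP went from 0.55 and 0.45 FPKM to 0.22 and 0.11 FPKM. S100B did not exceed 0.05 FPKM. The calls of ERG and OLIG2 were lost without shScr replicate 1 or 2 (adjusted p from 0.0836 to 0.144), that of TEK without any library but shScr replicate 2 (0.0722 to 0.117) and that of GFAP without any 1 library (0.0621 to 0.145). With GC and length trends removed, the log2 fold change of GFAP was -0.118 and did not pass (limma adjusted p = 0.181). CDKN2A, which U87 cells lack, did not exceed 0.05 FPKM. The part of these markers in the collagen values was not tested.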

How the data were processed

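The 4 libraries were grouped by their titles and genotypes. The authors deposited 1 FPKM value per gene and library, rounded to 2 decimals, in 2 tables whose values did not differ. The submitters' processing notes name HISAT2 2.1.0 and hg19, whereas the gene positions in the table fit GRCh38: 43 of the 44 collagen genes overlap their RefSeq GRCh38.p14 positions, and COL11A2 is placed on an alternate scaffold. The counting program and its use of strand are not given in the sources used here. The table also holds 15 columns of the authors' own comparisons (fold changes, p-values and q-values) and 2 columns of group means, which were not used. Reads that fit more than 1 chain gene, and antisense overlap in 9 of the collagen genes, could not be resolved.

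All 16595 genes that were above 0 somewhere were fitted with limma 3.58.1 (R 4.3.3) on log2(FPKM + 1), with a pseudocount of 1, group as the only term, default eBayes options and Benjamini-Hochberg adjustment, which gave 3.72 degrees of freedom. The collagen genes, the lists and the alternatives were chosen with earlier results of these data known. Named genes were the collagen genes with a mean of at least 1 FPKM in either group and, per list of processing and receptor genes, the 3 with the highest level and the 2 with the largest change past 0.05. The other collagen genes were given by range, and those that passed, as well as PLOD3, ITGA2 and marker genes, were named after their values were seen. No read totals were used. Depth was estimated from the steps between low FPKM values of 70 to 73 short genes per library. This put each shPTPRN-2 library at about 18500000 reads and the shScr libraries at 19900000 and 18500000. Of those low values, 65.8 to 68.6% lay at whole reads, within 0.02 read plus the rounding error of the FPKM. Exons were read from GENCODE 29 and promoters from RefSeq. The alternatives were a pseudocount of 0.1, a minimum of 1 FPKM in 2 libraries, a replicate block, quantile normalization, median-ratio scaling, an eBayes trend and leaving out each library, and, added after seeing the data, removal of GC and length trends and a pseudocount of 0.1 with the trend.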

Additional observations from a re-analysis of the deposited data

How the results depend on the processing

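Of the 12 alternatives, none moved the number of collagen genes that fell at an adjusted p of 0.05 outside 14 to 22 (18 as reported). COL1A1, COL1A2, COL5A1, COL5A2, COL5A3, COL6A1, COL6A2, COL6A3, COL7A1, COL9A2, COL12A1, COL13A1 and COL16A1 kept their direction and passed 0.05 under all 12. The number that rose was 5 as reported, 2 with the minimum FPKM, 3 with the replicate block, 10 with GC and length trends removed and 2 to 4 with 1 library left out. The counts past the stricter thresholds, 12 lower and 1 higher, were 0 and 0 with a pseudocount of 0.1, with the replicate block and whenever 1 library was left out. With a pseudocount of 0.1 and with the replicate block, 0 of all genes passed them in limma. At a fold change of 2 and an adjusted p of 0.05, 13 collagen genes were lower and 1 higher in the main fit. In the alternatives that kept every library, 11 to 17 were lower and 1 or 2 higher. The share of all genes at this fold and p was not computed, so these counts have no background to be read against. At an adjusted p of 0.05 alone, shares of all genes are given here for the main fit only. The numbers that fell or rose under the alternatives therefore have no background either. With a pseudocount of 0.1 and the eBayes trend together, 13 were lower and 1 higher past the stricter thresholds. The median log2 fold change of the collagen genes, -0.25 as reported, was -0.92 with a pseudocount of 0.1, -1.52 with the minimum FPKM, which left 19 of them, -0.18 after quantile normalization, -0.14 with GC and length trends removed and -0.25 to -0.17 with 1 library left out. With a pseudocount of 0.1 the log2 fold changes of COL9A2 and COL13A1 were -3.56 and -3.17, and with GC and length trends removed that of COL27A1 was -0.50. The ratio of summed FPKM went from 3.84 to 3.97 with median-ratio scaling. The direction of COL4A6 (-0.05 as reported) turned to 0.0289 after quantile normalization and to 0.149 with GC and length trends removed, and ranged from -0.1215 to 0.01998 with 1 library left out, and that of COL8A2 turned to 0.016 with GC and length trends removed. The genes that act on collagen and rose numbered 4 as reported and 7 with those trends removed, again without a share of all genes for that fit. The replicate numbers were shared across groups, but deviations of same-numbered libraries correlated at only 0.0635 over 11272 genes, so the libraries were not treated as paired. The cause of these shifts was not tested. With 2 libraries per group, changes of chains below 1 FPKM rest on few reads.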
